A study of Mus musculus with 4 samples.

Results

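The genes described here encode the machinery that turns hairpin RNA into small RNA and uses it to lower transcripts. They were taken by name from a fixed list of 10 (Drosha, Dgcr8, Xpo5, Dicer1, Ago1, Ago2, Ago3, Tnrc6a, Tnrc6b and Tnrc6c), after the Ensembl identifiers of the deposited files had been matched to mouse gene symbols in GENCODE M21. All 10 were found among 25261 identifiers, and all 10 passed the filter that left 21829 genes in the test. The libraries were made from RNA of adult neural stem cells from C57BL/6 mice of 8 weeks. shOGT cells (n = 2) had received a lentivirus encoding a short hairpin RNA directed at mouse Ogt, and ctrl cells (n = 2) one encoding a scrambled short hairpin RNA. Both groups thus carried a lentivirus and a hairpin, and a group without a hairpin was not analysed here. Nothing in the labels ties a library to a culture or animal of its own. The p-values below therefore measure the variation among these libraries, and that variation may be technical.

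In animal cells a microRNA starts as a hairpin in a longer transcript. The nuclease Drosha and its RNA-binding partner Dgcr8 cut the hairpin out in the nucleus, exportin-5 (Xpo5) carries it to the cytoplasm, and Dicer1 trims it to a short duplex. An Argonaute protein takes up a single strand of that duplex as its guide, and a TNRC6 (GW182) scaffold protein bound to the Argonaute brings in the enzymes that shorten the poly(A) tail and remove the cap of the paired transcript. A short hairpin RNA delivered by a virus enters this route before export. The tool used to lower Ogt and the microRNAs of the cell thus share the proteins from export onward. Whether the hairpin used here also passed through the cut by Drosha and Dgcr8 is not shown by these data.

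A hairpin of this kind lies within the set itself. Mir1306 is annotated inside the coding sequence of Dgcr8, at chr16:18284239-18284317 on the minus strand of GRCm38.p6. Its sequence is shown because it is the form of RNA on which Drosha and Dicer1 act; the capitals mark the mature strands on its 2 arms, as RefSeq gives them.
Mir1306 hairpin: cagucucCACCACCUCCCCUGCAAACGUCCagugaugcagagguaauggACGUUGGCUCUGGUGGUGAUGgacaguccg

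Ogt, the gene targeted by the hairpin, measured 3379 and 3516 in shOGT libraries and 4112 and 4137.5 in ctrl libraries (log2 fold change -0.26 ± 0.04, SE; limma adjusted p = 0.00876), a modest fall in the direction the labels give. The deposited values behave like read counts divided by a single factor per library; the implied totals were 15697508 and 17753976 reads in shOGT and 16909316 and 17090949 in ctrl. Each of the 10 genes rested on 651 to 5439 implied reads in a library, which gives a counting error of 3.92% at the lowest and 1.36% at the highest. Of the markers of neural stem cells, which included Nes, Sox2 and Vim, 8 of 8 were measured, and Fabp7 was the 1 called, at -0.49. Their summed signals were 83028 and 84138 in shOGT and 87273 and 90279.9 in ctrl. Fabp7 (20416.5 and 22434 in shOGT, 29543 and 30451 in ctrl) gave these sums their direction. Msi1, Vim and Egfr were higher in both shOGT libraries, Sox2 was lower in both, and Nes, Sox9 and Prom1 overlapped. The 5 neuronal markers summed to 285 and 362 in shOGT and to 316 and 259.9 in ctrl. The 4 microglial markers that could be looked up summed to 8.51 and 10.4 in shOGT and to 9.97 and 6.94 in ctrl, and the 1 endothelial marker stayed under 6 in every library. Of the 4 astrocyte markers 1 was called lower (Aldh1l1, -0.19), with sums of 10285 and 11043 in shOGT and 11323 and 11269 in ctrl. Gfap, not called, was higher in both shOGT libraries (1185 and 1762 in shOGT, 1125 and 1169 in ctrl). Aqp4, not called, was lower in both, and S100b overlapped. Of the 6 markers of the oligodendrocyte lineage, 5 were tested and 1 was called lower (Pdgfra, -1.13). The sums were 22572 and 21726 in shOGT and 21746.5 and 21722 in ctrl. Most of each sum was Olig2, not called but higher in both shOGT libraries (20158 and 19687 in shOGT, 19015 and 19105 in ctrl). Pdgfra, Cspg4, Sox10, Mbp and the nearly absent Mog were lower in both shOGT libraries. Values of the groups did not overlap for 49.3% of all genes tested. The 3 pericyte markers summed to 15.9 and 20.7 in shOGT and to 26.9 and 35.7 in ctrl. No marker that could be looked up was at 0 in all 4 libraries. The part of these cell types in the results was not tested. In RNA from many cells, fewer cells of a type and less RNA per cell cannot be told apart.

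Of the 10 genes, Dicer1 and Tnrc6c were lower in shOGT cells, Tnrc6b was higher, and the other 7 did not pass the test. The shifts were of the size of the fall of Ogt itself: the mean signal of Dicer1 fell by 14.7%, that of Tnrc6c fell by 14.8%, and that of Tnrc6b was 16.5% higher. A gene is called higher or lower here when limma gave a Benjamini-Hochberg adjusted p under 0.05 over all 21829 genes, on log2(value + 1), a scale that understates the change of low genes. By that rule 1.96% of all genes tested were called higher, 2.9% lower and 4.86% in either direction. Genes whose mean signal lay within the range spanned by the 10 genes were called more often, 4.36% of 5247 higher and 7.13% lower, 11.5% in all. The median log2 fold change was 0.05 over the 10 genes and 0.001 over all genes tested. The shOGT and ctrl values did not overlap for 6 of the 10 genes, 4 higher and 2 lower, a pattern seen in 49.3% of all genes and in 64.1% of those in the same signal range. At an unadjusted p under 0.05 there were 4 of the 10 (the 3 called genes and Tnrc6a), against 19.3% of all genes. This share was not worked out for genes in the same signal range.

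**Figure D1:**
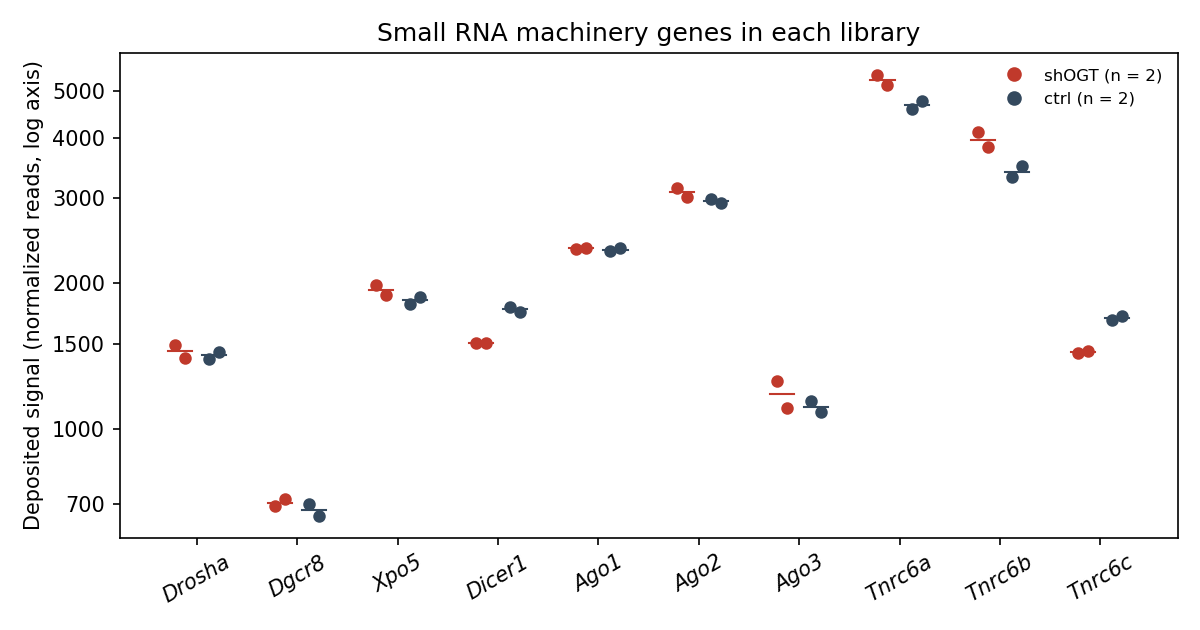
Deposited signal (log axis) of each of the 10 genes in the 2 shOGT libraries (left of each pair) and the 2 ctrl libraries (right); points are libraries and short lines are group means. Dicer1 and Tnrc6c lie lower in both shOGT libraries, Tnrc6a and Tnrc6b lie higher, and the points of Drosha, Dgcr8, Ago1 and Ago3 overlap between groups.

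The nuclear step showed no called change. Drosha (chromosome 15, 12824815 to 12935291, plus strand, GRCm38), the nuclease that makes the first cut, measured 1489.5 and 1403 in shOGT and 1397 and 1443 in ctrl. The lower shOGT library fell between the 2 ctrl libraries, and the log2 fold change was 0.03 with a 95% interval of -0.09 to 0.15. Dgcr8 (chromosome 16, 18253948 to 18289246, minus strand), which recognises the hairpin and holds Drosha on it, measured 692 and 717 in shOGT and 701 and 663 in ctrl. Its groups overlapped as well, at 0.05 with an interval of -0.10 to 0.19. Drosha is known to cut hairpins in the Dgcr8 messenger RNA and so to limit its own partner, and the Mir1306 hairpin printed above lies in that transcript. Exons of Dgcr8 share 10.7% of their length with Trmt2a on the other strand, and reads of the pair could not be told apart if counting ignored strand, which is not stated in the sources used here.

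Xpo5 (chromosome 17, 46202782 to 46243598, plus strand), the export receptor through which hairpins leave the nucleus, measured 1988 and 1889 in shOGT and 1816 and 1878 in ctrl. Both shOGT values lay above both ctrl values, by a margin smaller than the spread within either group, and the log2 fold change of 0.07 (interval -0.04 to 0.18) did not pass (limma adjusted p = 0.487).

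Dicer1 (chromosome 12, 104687742 to 104751952, minus strand) makes the cytoplasmic cut that frees the small RNA duplex. It measured 1508 in both shOGT libraries, against 1788 and 1748 in ctrl. The shOGT libraries were both lower than either ctrl library, and the gap between groups was larger than the spread within them. The mean was 1508 ± 0.46 in shOGT and 1768 ± 28.5 in ctrl (SD, n = 2 each), and limma put the difference at -0.23 ± 0.05 on the log2 scale (SE; 95% interval -0.34 to -0.12; limma adjusted p = 0.0263). The shOGT values rested on 1418 and 1600 implied reads and lay closer together than counting error alone would give. The SD of 0.46 thus understates the spread in shOGT. The ratio of Dicer1 to Drosha signal within a library, which does not depend on how libraries were scaled, was 1.01 and 1.08 in shOGT and 1.28 and 1.21 in ctrl. No ratio from an shOGT library reached that of a ctrl library.

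No Argonaute gene was called, and every interval included 0. Ago2 (chromosome 15, 73095844 to 73184935, minus strand) encodes the Argonaute that can itself cut a fully paired transcript, the mode of action for which short hairpin RNAs are designed. It measured 3152 and 3011 in shOGT and 2985 and 2934 in ctrl. Both shOGT values were above both ctrl values, yet the log2 fold change was only 0.06 (interval -0.04 to 0.15; limma adjusted p = 0.516). Exons of Ago2 overlap Chrac1 on the other strand over 1.56% of their length. Ago1 (chromosome 4, 126435012 to 126468583, minus strand), which acts mainly through the TNRC6 proteins, measured 2356 and 2366 in shOGT and 2337 and 2359.9 in ctrl. Its difference of 0.008 was the smallest among the 10 genes, with an interval of -0.09 to 0.10. Ago3, its neighbour on chromosome 4 (126331704 to 126429556, minus strand), measured 1255 and 1108 in shOGT and 1141 and 1083 in ctrl. These groups overlapped (0.08, interval -0.07 to 0.24), and without shOGT 1 the difference was -0.01. The fourth Argonaute, Ago4, was looked at after its values were seen, to complete the family. It measured 164 and 225 in shOGT and 240.3 and 231 in ctrl, lower in both shOGT libraries, mainly in shOGT 1, and did not pass (-0.29 ± 0.15, limma adjusted p = 0.316).

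Per kilobase of annotated exon, Ago1 and Ago2 made up most of the Argonaute signal. Ago1 took 47.2% and 48.1% of the sum of the 4 genes in shOGT and 47.6% and 48.6% in ctrl. Ago2 took 36.6% and 35.5% in shOGT and 35.2% and 34.9% in ctrl. The sum itself was 614 and 605 per kilobase in shOGT and 604 and 598 in ctrl. The shares of Ago1 overlapped between groups, and those of Ago2 and the sum were slightly higher in both shOGT libraries.

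Of the TNRC6 genes, Tnrc6b was called higher and Tnrc6c lower. These scaffolds carry repeats of glycine and tryptophan that dock onto Argonaute and onto the deadenylase complexes. Tnrc6b (chromosome 15, 80711313 to 80941085, plus strand) measured 4105 and 3815 in shOGT and 3309.95 and 3486 in ctrl. Its means were 3960.0 ± 205 in shOGT and 3398 ± 124 in ctrl (SD, n = 2 each), which limma put at 0.22 ± 0.05 on the log2 scale (SE; interval 0.11 to 0.33; limma adjusted p = 0.0339). Tnrc6c (chromosome 11, 117654289 to 117763439, plus strand) measured 1436 and 1452 in shOGT and 1678 and 1712 in ctrl. Its means were 1444 ± 10.8 in shOGT and 1695 ± 23.8 in ctrl, a log2 fold change of -0.23 ± 0.05 (interval -0.34 to -0.12; limma adjusted p = 0.0266). Tnrc6a (chromosome 7, 123123885 to 123195296, plus strand) measured 5384 and 5127 in shOGT and 4587 and 4762 in ctrl. It was higher in both shOGT libraries, at 0.17 ± 0.04 (interval 0.08 to 0.26), and just missed the threshold (limma adjusted p = 0.0508). It passed in 4 of 12 alternatives, among them libraries rescaled to equal totals (limma adjusted p = 0.0294), a minimum value of 10 (0.0141) and a pseudocount of 5 (0.0429). It did not pass with a pseudocount of 0.5 (0.0585), quantile normalization (0.147), no filter (0.183), no variance trend (0.455) or any 1 library left out (0.297 to 0.442).

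**Figure D2:**
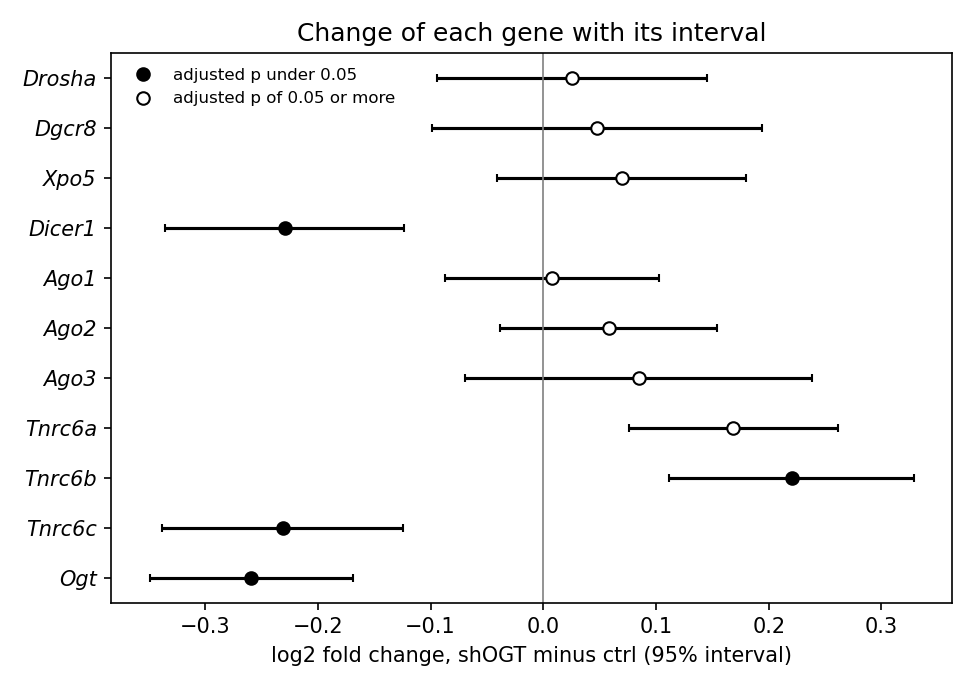
log2 fold change of each of the 10 genes and of Ogt, shOGT minus ctrl, with limma's 95% interval; filled points have an adjusted p under 0.05. Dicer1, Tnrc6c and Ogt lie between -0.23 and -0.26, Tnrc6b lies at 0.22, and Tnrc6a at 0.17 is not filled although its interval lies above 0.

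Within a library the balance of the family differed between groups. The ratio of Tnrc6b to Tnrc6c signal was 2.86 and 2.63 in shOGT and 1.97 and 2.04 in ctrl. That of Tnrc6a to Tnrc6c was 3.75 and 3.53 in shOGT and 2.73 and 2.78 in ctrl. No shOGT ratio overlapped a ctrl ratio. Each of these ratios divides a gene higher in both shOGT libraries by one lower in both, so they could not overlap and add no evidence. The ratio of Ago2 to Ago1 was 1.34 and 1.27 in shOGT and 1.28 and 1.24 in ctrl, where the groups overlapped. Per kilobase of exon, Tnrc6c supplied 15.8% and 16.7% of the TNRC6 signal in shOGT and 20.7% and 20.3% in ctrl. The sum of the 3 genes was 709 and 678 per kilobase in shOGT and 632 and 655 in ctrl, so that the total was higher in both shOGT libraries while Tnrc6c was lower. These ratios were picked after the values were seen, and they are given without a test, since 2 libraries a group allow an exact permutation p of 0.333 at the lowest.

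**Figure D3:**
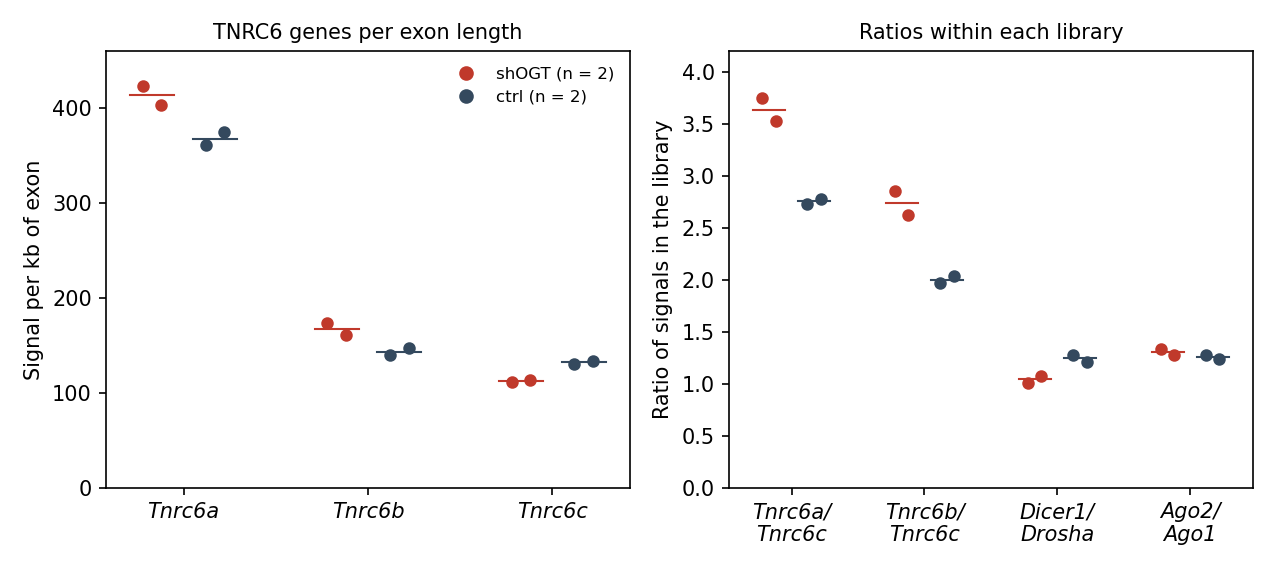
Left, signal per kilobase of annotated exon of the 3 TNRC6 genes; right, ratios of signals within each library. Points are libraries, shOGT left and ctrl right, and short lines are group means; the Tnrc6a/Tnrc6c and Tnrc6b/Tnrc6c ratios are higher in both shOGT libraries, and Dicer1/Drosha is lower.

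Set side by side per kilobase of exon, the 10 genes covered a range of about 69.2 to 391 on average over the 4 libraries. Tnrc6a was the highest (414 ± 14.3 in shOGT, 368 ± 9.74 in ctrl; SD, n = 2 each), followed by Ago1 (291 and 289) and Xpo5 (283 and 269), whose ranges over the 4 libraries overlapped. Drosha came next (244 in shOGT, 239 in ctrl), then Ago2 (219.6 and 211), Tnrc6b (167 and 144) and Tnrc6c (112 and 132). Dicer1 (90.03 in shOGT, 106 in ctrl) and Dgcr8 (91.6 and 88.6) overlapped in range, and in shOGT the mean of Dgcr8 was the higher of the pair. Ago3 was the lowest at 71.3 in shOGT and 67.1 in ctrl. Exon lengths are those of all annotated transcripts of a gene merged, so that the order would shift where cells use a short form; Tnrc6b has 23677 bases of exon and Drosha 5935.

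The promoters of the 3 called genes are printed because Dicer1 and Tnrc6c fell by nearly the same proportion while Tnrc6b, a paralogue of Tnrc6c, was higher. Each runs from 250 bases before to 50 after an annotated start, on the strand of the gene, from RefSeq on GRCm38.p6. For Tnrc6b, which has 2 annotated starts, the upstream one is shown. Capitals mark matches on either strand to GGGCGG (a GC box), to the box named by its letters, CCAAT, or to TATAAA (the TATA box).
Dicer1, chr12:104751903-104752202, minus strand: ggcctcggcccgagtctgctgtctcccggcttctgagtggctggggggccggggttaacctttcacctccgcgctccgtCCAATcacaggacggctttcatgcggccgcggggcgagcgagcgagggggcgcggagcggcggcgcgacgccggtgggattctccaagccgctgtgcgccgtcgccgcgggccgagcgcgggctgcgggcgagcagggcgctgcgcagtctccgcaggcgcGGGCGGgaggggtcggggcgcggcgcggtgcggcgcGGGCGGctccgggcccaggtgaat
Tnrc6c, chr11:117654039-117654338, plus strand: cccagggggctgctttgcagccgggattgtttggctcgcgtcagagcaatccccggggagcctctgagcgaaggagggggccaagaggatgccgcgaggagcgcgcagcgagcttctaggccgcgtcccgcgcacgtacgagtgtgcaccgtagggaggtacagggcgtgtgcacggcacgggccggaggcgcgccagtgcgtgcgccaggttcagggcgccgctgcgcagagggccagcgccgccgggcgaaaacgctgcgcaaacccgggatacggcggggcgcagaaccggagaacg
Tnrc6b, chr15:80711063-80711362, plus strand: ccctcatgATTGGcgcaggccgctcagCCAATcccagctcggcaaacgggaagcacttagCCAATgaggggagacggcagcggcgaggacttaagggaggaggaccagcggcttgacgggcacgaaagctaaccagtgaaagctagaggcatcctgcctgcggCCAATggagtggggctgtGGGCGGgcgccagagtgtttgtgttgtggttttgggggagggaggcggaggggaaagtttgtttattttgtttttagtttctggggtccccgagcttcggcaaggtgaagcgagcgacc

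The Dicer1 window held 2 GC boxes and 1 CCAAT box, that of Tnrc6c none of the 3 motifs, and that of the upstream Tnrc6b start 1 GC box and 4 CCAAT boxes. The window of the second Tnrc6b start held none of the 3 motifs, so that what Tnrc6b shares with the other genes depends on the start taken. Of all 32851 RefSeq promoter windows of this length, 35.7% held a GC box, 37.4% a CCAAT box and 13.6% a TATA box. Dicer1 had 49 CG dinucleotides and Tnrc6c 40, while the Tnrc6b windows had 18 (upstream start) and 9 (second start), against a median of 7 over all windows. The windows of the other genes held 31 to 43 (Drosha, Dgcr8, Xpo5, Ago1 and Ago3) or 11 (Tnrc6a). RefSeq windows were matched for 9 of the 10 genes, all but Ago2. Of their 11 windows, 7 held a GC box, 6 a CCAAT box and 0 a TATA box. Genes that were not called held these motifs too, among them Dgcr8 (2 GC boxes and 4 CCAAT boxes) and Ago3 (5 GC boxes), while Tnrc6a held none.

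Transcripts lowered by a small RNA often hold a short stretch that pairs with its seed, commonly in the 3' untranslated region. The hexamers GCTATC and GTACCC were looked for on the sense strand of the longest annotated 3' untranslated region of each gene, having been chosen with results of these data known, and are no independent evidence. At least 1 of them was present in 30.6% of 12891 expressed genes (mean signal of at least 10) and in 6 of the 10 genes: Dgcr8, Dicer1, Ago1, Ago2, Ago3 and Tnrc6b. These regions are long, with a median of 3219.5 bases over the 10 genes and 1246 over expressed genes, and a longer region holds more matches of any kind. Of the genes called lower, 55.2% held at least 1 of the hexamers, and of those called higher 29.7%, with median lengths of 1569 and 1737 bases. The match in Dicer1, 1 of the 2 genes that fell, and those to GCTATC in Ago2 and Ago3, which did not pass the test, are shown with their surroundings on GRCm38; capitals mark the hexamer.
Dicer1, chr12:104687843-104687872, minus strand: tccatgcacacaGCTATCactgcagagctg
Ago2, chr15:73104943-73104972, minus strand: ctgggactgcctGCTATCccattggcaagt
Ago2, chr15:73103291-73103320, minus strand: taagctgatctgGCTATCccaatgcatgtg
Ago2, chr15:73101671-73101700, minus strand: ctctgaagcatcGCTATCcacactgaatat
Ago3, chr4:126341643-126341672, minus strand: gaagcccagagaGCTATCcatccaaaacac

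Whether the hexamers go with the direction of change among these genes was not tested. Dicer1 fell and held 1 match to GCTATC in 3851 bases. Ago2 held 3 matches to GCTATC and 3 to GTACCC in a region of 11064 bases, and its signal was not called. Tnrc6c fell with no match in 2588 bases, and Tnrc6b, which was higher, held 1 match to GTACCC in 11609 bases. A match is a description of the letters and does not show that a small RNA binds there.

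Outside the 10 genes, few genes of the small RNA pathway were called. Of 83 listed cofactors, chaperones and effectors, 80 were tested; 1 was higher and 4 were lower, 5 in all, against the 4.86% called in the whole table. Their median log2 fold change was 0.01, and it was just under 0 (-0.0008965) without shOGT 1. The largest called change was in Ppp6c, the catalytic subunit of the phosphatase that in human cells resets phosphorylated AGO2. It measured 898 and 1003 in shOGT and 1521 and 1548 in ctrl (-0.69 ± 0.06; limma adjusted p = 0.00107). Rangap1, which triggers GTP hydrolysis by Ran and so takes apart export complexes such as that of exportin-5, measured 3216 and 3100.4 in shOGT and 4469.8 and 4686 in ctrl (-0.54 ± 0.04; limma adjusted p = 0.000613). In both genes the shOGT values lay far below the ctrl values relative to the spread within groups. In the 3' untranslated region Rangap1 held 2 matches to GCTATC and Ppp6c 2 to GTACCC, while the other 3 called pathway genes (P4ha1 and P4hb, both lower, and Zswim8, higher) held 0. The hexamers were chosen with results of these data known, so these matches are no independent evidence. At least 1 hexamer was present in 30.6% of expressed genes, and a link to the direction of change was not tested.

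Among genes known to modify Argonaute, P4ha1 and P4hb were also lower. They encode subunits of collagen prolyl 4-hydroxylase, an enzyme that hydroxylates AGO2 in human cells and serves collagen folding as its main task. P4ha1 measured 1702 and 1342 in shOGT and 2225 and 2003 in ctrl (-0.48 ± 0.10; limma adjusted p = 0.0249), and its log2 fold change was -0.31 without shOGT 2. P4hb measured 6816 and 6929 in shOGT and 7877 and 7829.6 in ctrl (-0.19 ± 0.03; limma adjusted p = 0.0142). Zswim8, the ubiquitin ligase receptor that marks Argonaute for destruction when a microRNA meets a highly paired target, was the 1 gene called higher. It measured 2685 and 2724 in shOGT and 2394 and 2387 in ctrl (0.18 ± 0.04; limma adjusted p = 0.0436). Of the 10 listed Argonaute modifiers, 4 were thus called, 3 lower and 1 higher, against 4.86% of all genes tested and 11.5% of those in the signal range of the 10 genes; a list of this length was not tested against that share.

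In each other role 0 genes were called by limma, and the gene with the smallest unadjusted p is given. The counts at an unadjusted p under 0.05 stand against 19.3% of all genes tested, and several of them lie near that share. It was not worked out for genes of like signal. Among 11 cofactors of the nuclear cut, 4 had an unadjusted p under 0.05, with Ddx5, a helicase of the Drosha complex, at 0.10 ± 0.03. Among 3 partners of Dicer1, 0 had one, and Adar, which edits double-stranded RNA and shares 16.8% of its exon length with Chrnb2, measured 0.11 ± 0.06. Of 10 chaperones that open Argonaute for loading, 4 had one, and Hspa4 (0.15 ± 0.04) shared the adjusted p of Tnrc6a, 0.0508. Of 3 genes acting on the passenger strand, 2 had one, with Tsn, a subunit of the endonuclease that clears it, at 0.11 ± 0.04. Among 16 deadenylation genes, 4 had one, with Cnot9, the subunit that binds the tryptophans of TNRC6 proteins, at -0.18 ± 0.05 (adjusted p = 0.0679). Among 14 decapping and decay genes, 4 had one, with Eif4enif1, which links the decapping machinery to the cap-binding protein, at -0.22 ± 0.06 (adjusted p = 0.0789). Of 7 tested genes of small RNA tailing and trimming, 0 had one, and Parn, a poly(A) nuclease, measured -0.16 ± 0.08. Of the 3 tested Argonaute and PIWI genes, 0 had one, and Piwil2, at 9.57 and 16.97 in shOGT and 4.99 and 6.94 in ctrl, was near the lower end of detection.

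**Figure D4:**
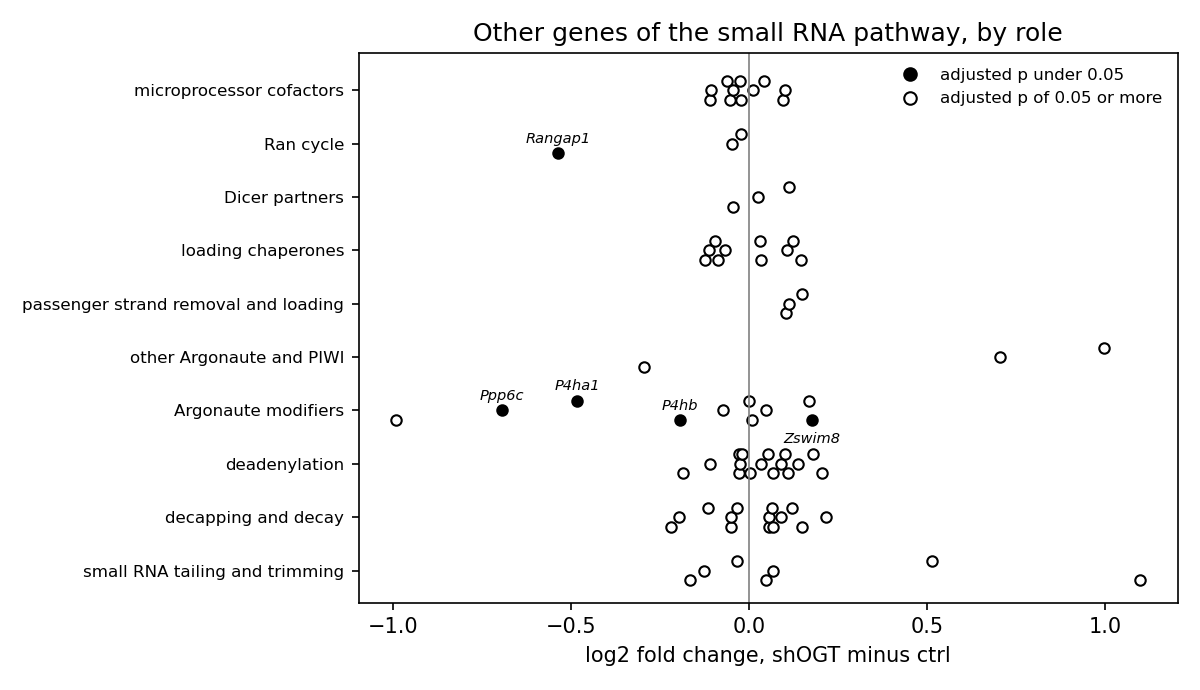
log2 fold change, shOGT minus ctrl, of the 80 tested genes of the small RNA pathway outside the 10 genes, by role; filled, named points have an adjusted p under 0.05. Rangap1, Ppp6c, P4ha1 and P4hb lie below 0 and Zswim8 above it; the points beyond 0.5 on either side that are not filled belong to genes of low signal.

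Transcripts that carry microRNA hairpins are the natural substrates of Drosha and Dgcr8, and 9 annotated host transcripts were measured. None was called by limma in either direction, and 1, Mir124-2hg, had an unadjusted p under 0.05. The groups did not overlap for 5 of the 9, 2 higher and 3 lower, against 49.3% of all genes tested. The exons of Mir9-3hg, Mir99ahg and Mir133a-1hg overlapped no annotated microRNA, so that their exon signal does not read a hairpin directly. Mir124-2hg measured 157 and 147 in shOGT and 201 and 183 in ctrl, lower in both shOGT libraries (-0.33 ± 0.12; limma adjusted p = 0.163). Mir22hg measured 167 and 142 in shOGT and 175 and 181 in ctrl (-0.20 ± 0.13), and Mir9-3hg 228 and 278 in shOGT and 264 and 288 in ctrl (-0.13 ± 0.12), with overlapping groups. Mir17hg, which holds the miR-17 to miR-92 cluster in its exons, measured 101 and 105 in shOGT and 93.7 and 83.3 in ctrl (0.22 ± 0.16). Mature microRNAs after which 3 of these transcripts are named or that lie in them are shown for their seeds (bases 2 to 8 from the 5' end, in capitals), from RefSeq; miR-17 and miR-20a share a seed.
mmu-miR-17-5p: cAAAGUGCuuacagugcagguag
mmu-miR-20a-5p: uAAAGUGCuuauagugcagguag
mmu-miR-22-3p: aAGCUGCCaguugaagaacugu
mmu-miR-9-5p: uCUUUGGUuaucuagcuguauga

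The remaining hosts gave 28.7 and 19.8 in shOGT and 27.9 and 30.8 in ctrl (Mir670hg), 124 and 136 in shOGT and 119 and 147 in ctrl (Mir99ahg), and signals under 13 in every library (Mir155hg, Mir124a-1hg and Mir133a-1hg). The files list 269 genes of the class miRNA, of which 15 had a mean of at least 10. Whether small RNA was kept in the libraries is not given in the sources used here, so that mature microRNA levels were not read from them.

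**Figure D5:**
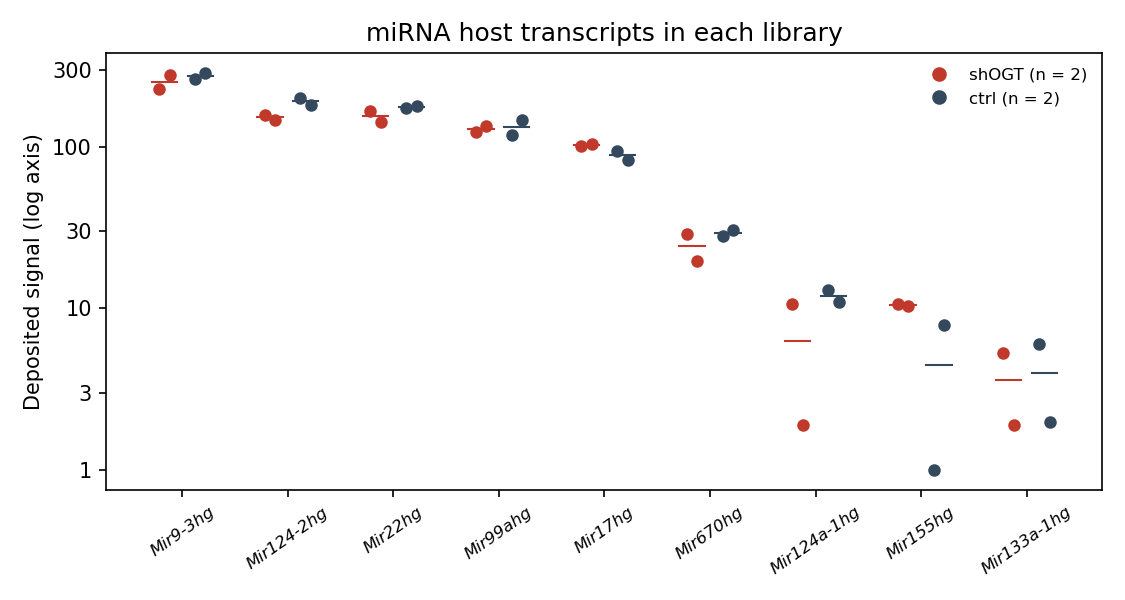
Deposited signal (log axis) of the 9 annotated miRNA host transcripts in the 2 shOGT libraries (left of each pair) and the 2 ctrl libraries (right); short lines are group means. Among the 5 hosts of highest signal the groups lie close together, with Mir124-2hg lower in both shOGT libraries (157 and 147) than in ctrl (201 and 183).

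The calls rest on all 4 libraries. With any 1 library left out, 0 of 21829 genes were called by limma, with 2484 to 3389 at an unadjusted p under 0.05. Over those 4 fits the log2 fold change ran from -0.25 to -0.21 for Dicer1, from -0.25 to -0.22 for Tnrc6c and from 0.17 to 0.27 for Tnrc6b. The calls were also lost with quantile normalization, without the filter and without the variance trend, where 0 genes of the whole table were called. Of all called genes 40.3% were higher, and 50.3% were higher once libraries were rescaled to equal totals.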

How the data were processed

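Each library has 1 deposited file with a signal value per Ensembl gene. The submitters' processing notes name mm10; for the aligner, counting tool, annotation, strand use and normalization the answer is: not given in the sources used here. The signal values the authors deposited came in whole multiples of a step per library (1.06 and 0.943 in shOGT, 0.997 and 0.992 in ctrl), within 0.01 of a step. The rule used did not accept whole reads recovered from steps as close to 1 as those of ctrl, so no count model was run. The implied reads served for totals, counting errors and the chi-square below. GENCODE M21 on GRCm38 gave symbols, positions and merged exon lengths for 25250 of 25261 identifiers. Values were tested as log2(value + 1) for genes that reached 1 in 2 or more libraries, with limma 3.58.1 in R 4.3.3 (variance trend, 2-sided, Benjamini-Hochberg), and the code was tested on simulated data.

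Replicates differed beyond sampling noise (chi-square per gene 3.33 between shOGT libraries and 2.02 between ctrl libraries, where noise gives 1), and each counted as a sample. The 10 genes and all lists were chosen with earlier results of these data known. Named were the 10 genes, Ogt, every called pathway gene or host transcript, and the gene of smallest unadjusted p in a role without a call. Likeness of pattern to other genes was not ranked over 4 libraries. Counting errors cover counting only. Alternatives changed the pseudocount, filter, scaling, variance trend, replicate block and libraries. The listed genes Piwil1, Cx3cr1, Cldn5 and Cdh5 were not analysed here.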

Additional observations from a re-analysis of the deposited data

How the results depend on the processing

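The 10 genes gave 1 higher and 2 lower calls, and the pathway list 1 higher and 4 lower. With no filter, quantile normalization or no variance trend, each of these counts was 0, and it was 0 to 0 over the fits without 1 library; the cause was not tested. With a pseudocount of 5, a minimum of 10 and libraries rescaled to equal totals, 2 of the 10 genes were higher (Tnrc6a joined Tnrc6b), and 2, 4 and 5 pathway genes were higher. The counts for miRNA host transcripts were 0 throughout. No call changed sign. The replicate numbers gave no pairing (deviations of same-numbered libraries correlated at r = 0.03 over 15475 genes); with the replicate block, 2 of the 10 genes were higher and 2 lower, 5 pathway genes were higher and 7 lower, and 2302 genes were called in all, against 1060. A minimum of 10 gave 1955 calls. The planned count tests were not run. With 2 libraries a group, Tnrc6a at a log2 fold change of 0.17 was not called and the 95% interval of Ago3 ran from -0.07 to 0.24, so that changes of this size can be missed.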
